A study of Mus musculus with 2 samples.

Results

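Genes for 5 transcription factors of mesenchyme were followed in molar tissue at PN15.5: Prrx1, Prrx2, Twist1, Twist2 and Bnc2. They were taken by symbol, and each matched 1 of the 34285 genes counted, so that 5 of 5 were found. The 2 single-cell libraries were compared. One came from C57BL/6J mice injected with clodronate liposomes (Lipo-Clo), which macrophages engulf and which kill them. The dose was 40 μg/g, given first on PN3.5 and again on PN6.5, on PN9.5 and lastly on PN12.5. The other came from C57BL/6J mice given vehicle liposomes (Lipo-PBS). Both were digests of the first mandibular molars with surrounding tissue, run on the 10x Genomics platform. The comparison asks how dental mesenchyme differs when macrophages are depleted during root development. Each condition is 1 library, the number of mice in it is not stated in the sources used here, and no test between conditions was possible. Intervals are at the 95% level and cover counting error only.

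Prrx1 and Prrx2 encode paired-related homeodomain proteins, which bind DNA at short sites with the core TAAT and act in limb and craniofacial mesenchyme. Twist1 and Twist2 encode basic helix-loop-helix proteins, which pair with E proteins such as those of Tcf3, Tcf4 and Tcf12 and bind E-boxes (CANNTG). Both Twist proteins are known to restrain osteoblast differentiation through Runx2, and TWIST1 loss is a cause of craniosynostosis in people. Bnc2 encodes a zinc finger protein, basonuclin 2, found in both mesenchymal and epithelial cells, and needed for growth of craniofacial mesenchyme.

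Promoter windows are printed for the 2 members that were lower in Lipo-Clo mesenchyme, Prrx1 and Bnc2, and for Prrx2, the paralog that was not. Each is the 250 bases before a RefSeq start of the gene (GRCm38.p6). They are Prrx1 at chr1:163313651-163313900 on the minus strand, Bnc2 at chr4:84610198-84610447 on the minus strand and Prrx2 at chr2:30845117-30845366 on the plus strand. Capitals mark TAAT on either strand (TAAT or ATTA) and CANNTG, which can adjoin or overlap.
Prrx1: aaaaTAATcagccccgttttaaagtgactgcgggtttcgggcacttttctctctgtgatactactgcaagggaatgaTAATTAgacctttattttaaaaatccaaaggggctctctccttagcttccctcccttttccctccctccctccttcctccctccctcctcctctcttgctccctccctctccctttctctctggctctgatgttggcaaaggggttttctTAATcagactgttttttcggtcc
Bnc2: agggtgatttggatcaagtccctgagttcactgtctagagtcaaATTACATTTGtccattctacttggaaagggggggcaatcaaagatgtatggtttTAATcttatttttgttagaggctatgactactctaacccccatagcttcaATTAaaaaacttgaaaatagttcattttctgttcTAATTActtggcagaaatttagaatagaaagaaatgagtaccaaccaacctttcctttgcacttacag
Prrx2: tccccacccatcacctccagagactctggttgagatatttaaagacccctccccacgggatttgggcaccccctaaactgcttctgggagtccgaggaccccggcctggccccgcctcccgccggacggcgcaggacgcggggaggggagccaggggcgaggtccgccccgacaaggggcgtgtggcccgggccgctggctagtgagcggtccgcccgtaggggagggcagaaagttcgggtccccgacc
TAAT occurred at 4 places before Prrx1, 5 before Bnc2, 1 before Twist2 and 0 before Prrx2 and Twist1. Of all 32851 promoters of this length, 54.9% held it at least once. CANNTG occurred once before Bnc2 and not before the other 4 genes, and 66.2% of all promoters held it. The GC content was 47.6% before Prrx1 and 35.6% before Bnc2, against 70.0% before Prrx2, 62.4% before Twist1, 68.8% before Twist2 and a median of 52.4% over all promoters. The windows of Prrx1 and Bnc2 were thus below the median in GC and those of the other 3 above it. TAAT was present before 3 of the 5 genes, near its share of all promoters. A link of GC or TAAT to the ratios between libraries was not tested. A match of letters in these windows shows no binding. The Bnc2 window ends in ttgcacttacag, a form also seen at ends of introns, so it may lie inside the gene. Whether any of these windows is the promoter used in these cells was not tested.

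After filtering, 8254 Lipo-Clo and 8261 Lipo-PBS cells remained, with a median of 2567 and 2678 UMIs (unique molecular identifiers, each standing for 1 captured RNA molecule). Levels are UMIs summed over the cells of a class and scaled to counts per 1000000 (CPM). Cells fell into 25 clusters, of which 21 were named from marker genes into 10 classes, and each name below stands for a likeness to that cell type. Dental mesenchyme held 4268 Lipo-Clo and 4094 Lipo-PBS cells, and macrophages were still present, with 234 and 318 cells. Haemoglobin UMIs made up 2.70% of the mesenchymal total in Lipo-Clo and 5.48% in Lipo-PBS, and mitochondrial UMIs 0.382% and 1.64%. The libraries shared 30 cell barcodes among those deposited. A further 324 Lipo-Clo and 977 Lipo-PBS cells lay in 4 unnamed clusters, of which 1 held 10 and 752 cells and carried markers of several classes.

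The 5 genes were not all mesenchymal in the same way. Of their UMIs over both libraries, dental mesenchyme held 83.6% for Prrx2, 82.9% for Twist2, 80.3% for Twist1, 71.6% for Prrx1 and 58.0% for Bnc2. This order depended on the clustering. With finer clusters (Leiden resolution 2) mesenchyme held 54.9% of Twist2, below the 61.2% of Prrx1. Prrx2, Twist1 and Twist2 had their highest levels in mesenchyme and in the cycling cluster, whose intervals overlapped. For Prrx2 these were 168 CPM (163 to 173) in mesenchyme and 173 (151 to 197) in cycling cells, against 32.1 (24.9 to 40.8) in perivascular cells and 7.15 to 36.1 in the other classes. For Twist1 they were 279 CPM in mesenchyme and 293 in cycling cells.

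Among the classes Prrx1 was highest in perivascular cells (pericytes and smooth muscle, led by Rgs5 and Acta2), at 500.2 CPM (470.3 to 532). Mesenchyme as a whole followed at 228 (222 to 234), a mean over unlike states described below. Its ligament state led by Edil3, at 509 (481 to 539), and its fibroblast state, at 477 (456 to 499.6), both overlapped perivascular cells. A UMI of Prrx1 was seen in 54.3% of perivascular cells, at a median of 1676 UMIs per cell. Twist1 was also present there, at 162 CPM (146 to 181), whereas the paralogs Prrx2 and Twist2 were at 32.1 and 23.0 CPM. Perivascular cells therefore carried Prrx1 and Twist1 above every other class outside mesenchyme, the cycling cluster aside. In neutrophils, which should lack both and had a median of 2519 UMIs per cell, 8.85% of cells had a Prrx1 UMI.

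Among the classes Bnc2 was highest in epithelium, at 168 CPM (157 to 180), against 64.6 (61.7 to 67.7) in mesenchyme. The latter is a mean over unlike states, described below. The fibroblast state was at 163 CPM (150 to 176), which overlapped epithelium. In Lipo-PBS alone fibroblasts were at 197 CPM (180 to 215) and epithelium at 169.9 (153 to 188). In Lipo-Clo alone they were at 105 (89.0 to 123) and 167 (151 to 183). The name of mesenchymal factor thus covers its expression here in part. Both epithelial clusters carried it. The cluster led by Amelx, Klk4 and Amtn, genes of enamel-forming ameloblasts, was at 175 CPM (159 to 192), and that led by Lgals7, Krt14 and Krt6a, genes of stratified epithelium, at 161 (145 to 178). A Bnc2 UMI was found in 31.6% and 32.2% of their cells (median 2318 and 2953 UMIs), and in 3.69% of neutrophils.

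**Figure D1:**
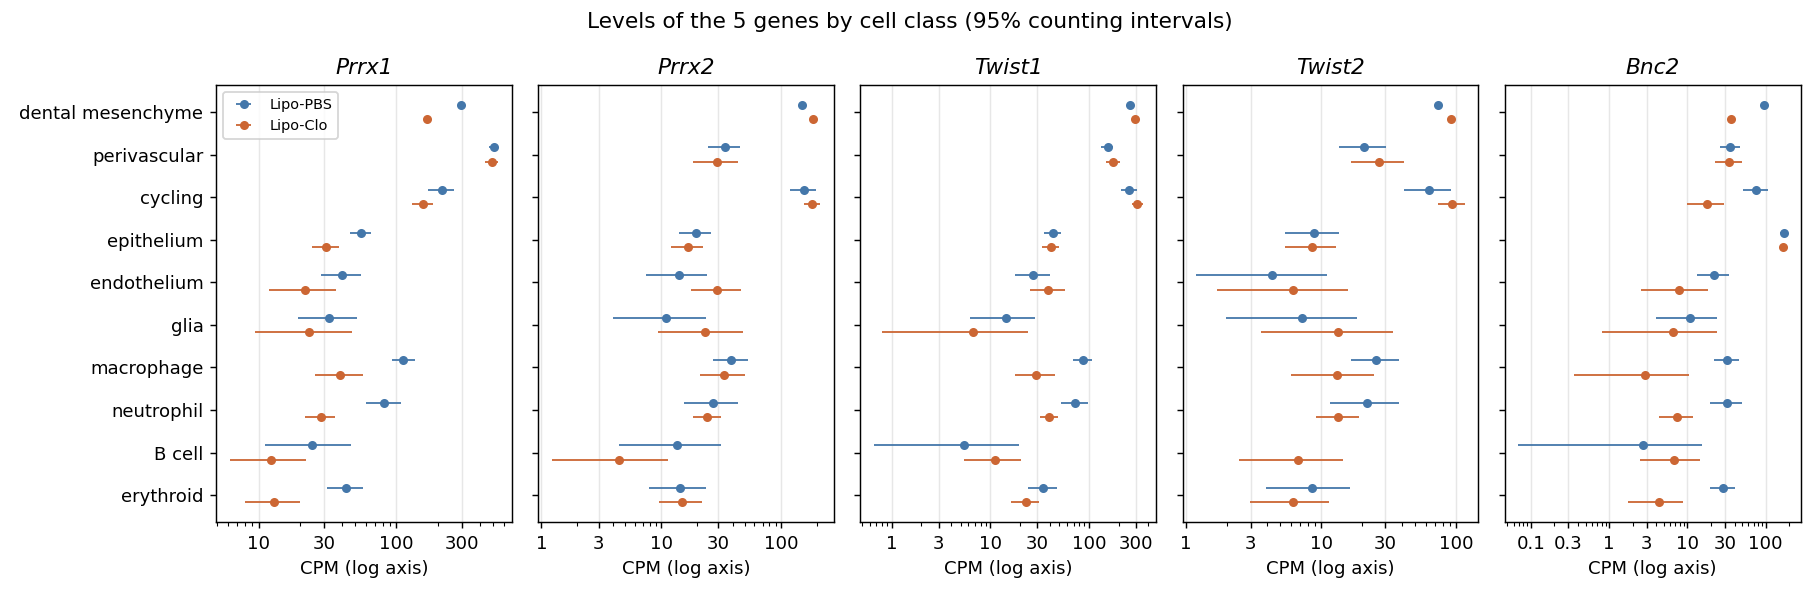
Level of each gene (CPM, log axis) in 10 cell classes, with Lipo-PBS in blue and Lipo-Clo in orange, 1 library each, and bars for 95% Poisson intervals; a level of 0 is not drawn. Among these classes Prrx1 peaks in perivascular cells and Bnc2 in epithelium, where the libraries overlap, while both are lower in Lipo-Clo mesenchyme. Mesenchyme is drawn as a mean over its states.

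Low levels elsewhere were compared with those of free collagen RNA. For each class, UMIs of the 5 genes were divided by the summed UMIs of Col1a1, Col1a2, Col3a1, Dcn and Lum, abundant mesenchymal genes that serve here as a measure of free RNA. Prrx1 was at 3.38 UMIs per 1000 of these in mesenchyme, at 3.55 in neutrophils and at 3.97 in endothelium, and all intervals overlapped. Twist1 was at 4.13 in mesenchyme, 4.25 in neutrophils and 4.18 in macrophages. In these classes Prrx1 or Twist1 was therefore at about the ratio of mesenchymal RNA. Whether such levels are background from free RNA or come from the cells themselves was not tested. Prrx1 was somewhat above it in macrophages, at 5.46 (4.58 to 6.46), and in erythroid cells, at 6.01 (4.65 to 7.64), as was Twist1 in erythroid cells, at 6.64 (5.21 to 8.35). Of the 136 macrophage Prrx1 UMIs, 84 came from the 151 Lipo-PBS cells of a single cluster. Twist2 was above its mesenchymal 1.23 in perivascular cells, at 1.88 (1.39 to 2.49). Bnc2 was above its ratio in mesenchyme in endothelium, at 1.95 (1.26 to 2.87), in perivascular cells, at 2.86 (2.24 to 3.59), and in erythroid cells, at 3.37 (2.37 to 4.64). Perivascular Prrx1, at 40.9 (38.4 to 43.4), perivascular Twist1, at 13.3 (11.9 to 14.8), and epithelial Bnc2, at 18.2 (16.9 to 19.4, against 0.957 in mesenchyme) lay far above that ratio. Prrx1 and Twist1 in epithelium did not to that extent, at 4.55 and 4.50. The mesenchymal ratio is itself a mean over unlike states, which are described below. Prrx1 was at 7.84 in fibroblasts and 1.55 in osteoblasts or cementoblasts, and Bnc2 at 2.67 and 0.138. Twist2 was at 155 CPM in the Lrrc4c-led pulp or papilla state. The 5 collagen and matrix genes were there at only 14543 CPM in Lipo-Clo and 16026 in Lipo-PBS. The ratio of Twist2 in that state was thus well above the 1.88 of perivascular cells. Which state free RNA came from was not tested, so values within these ranges cannot be told apart from background.

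**Figure D2:**
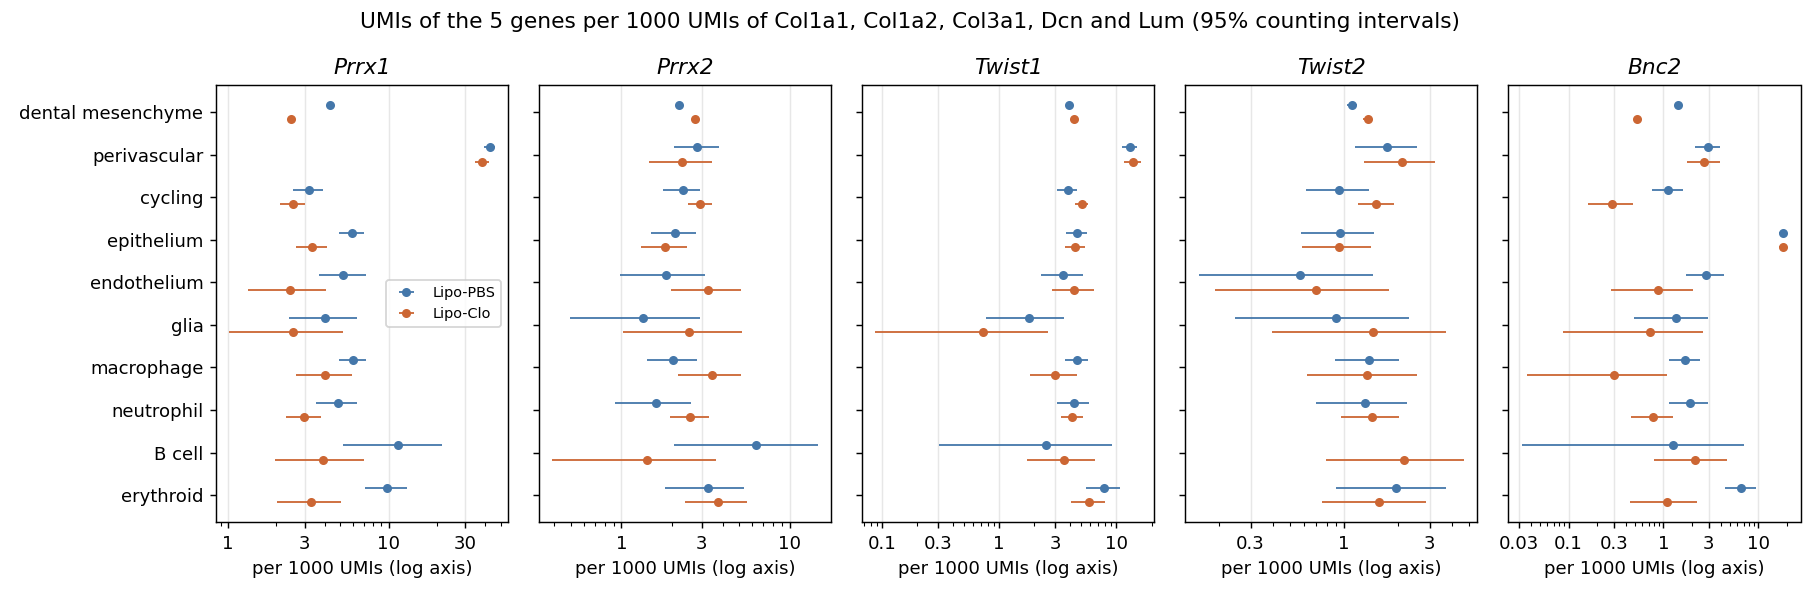
UMIs of each gene per 1000 UMIs of the 5 collagen and matrix genes (log axis) by class and library, with 95% intervals. Many classes sit near the mesenchymal ratio, and perivascular Prrx1 and Twist1 and epithelial Bnc2 stand to its right.

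Within mesenchyme, 10 states were separated without using the 5 genes, and 8 were named. They were fibroblast (led by Clec3b, Cd34 and Tnxb; 601 Lipo-Clo and 954 Lipo-PBS cells), osteoblast or cementoblast (Ibsp, Mef2c, Thbs4; 785 and 664) and dental follicle (Col18a1, C1qtnf3, Moxd1; 677 and 373). Periodontal ligament appeared as 2 states, one led by Edil3, Angptl1 and Aspn (193 and 560) and one by Aspn, Crispld2 and Mmp13 (460 and 211). Pulp or papilla likewise appeared as 2, led by Lrrc4c, Egfem1 and Pcp4 (452 and 221) and by Ctnnd2, Cntn4 and Slc20a2 (388 and 216). Odontoblasts were led by Dspp, Bglap and Gchfr (119 and 71), and their 10 leading genes also held the osteoblast genes Bglap2 and Ifitm5. The Edil3-led state carried some markers of fibroblasts and of osteoblasts or cementoblasts besides. The 2 unnamed states were led by Pcp4, Sfrp2 and Mmp13 (399 and 321) and by Hba-a2, Hba-a1 and Hbb-bs (194 and 503), the latter with 35.5% and 34.1% haemoglobin UMIs. Fibroblasts were the largest state in Lipo-PBS and osteoblasts or cementoblasts in Lipo-Clo.

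Each gene had its own order over these states, given here for both libraries together. Prrx1 was highest in the Edil3-led ligament state (509 CPM, 481 to 539) and in fibroblasts (477, 456 to 499.6), which overlapped, and dental follicle followed at 291. The other states were at 73.1 to 159.9 CPM, and their neighbours in the order overlapped. Prrx1 was itself among the 10 leading genes of the Edil3-led state.

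Bnc2 shared the fibroblast end of this order. It was at 163 CPM (150 to 176) in fibroblasts, 128 in the Pcp4-led state and 122 in the Edil3-led ligament state, the last 2 overlapping. In osteoblasts or cementoblasts it was at 10.6 CPM (7.79 to 14.01) and in odontoblasts at 10.9 (5.81 to 18.7), which overlapped at the lower end of the order.

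Twist1 was highest in dental follicle (475 CPM, 454 to 498), then in osteoblasts or cementoblasts (393, 375 to 412), where Bnc2 was lowest. The Edil3-led and the Aspn-led ligament states followed at 307 and 305, not apart beyond their intervals. Twist2 was highest in the Lrrc4c-led pulp or papilla state (155 CPM, 139.8 to 172), in which Twist1 was at 142, above its levels in the Ctnnd2-led state and in odontoblasts alone. Follicle was next for Twist2, at 106 CPM. In Lipo-PBS alone follicle was first, at 138 CPM (118 to 159.9), and the Lrrc4c-led state second, at 119.6, and the intervals overlapped.

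Prrx2 was the most even of the 5. It lay between 187 and 228 CPM in 6 states, led by follicle, and at 113 in fibroblasts, where Prrx1 was at its second highest. All 5 genes were low in odontoblasts, the dentin-forming cells, with Prrx2 at 35.3 CPM, Twist1 at 58.0 and Twist2 at 21.0, each the lowest of its 10 states. Prrx1 was at 73.1 there (58.5 to 90.1), which overlapped the 87.2 of the Ctnnd2-led state, and in Lipo-PBS alone it was above that state, at 100.6 and 90.6 CPM.

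**Figure D3:**
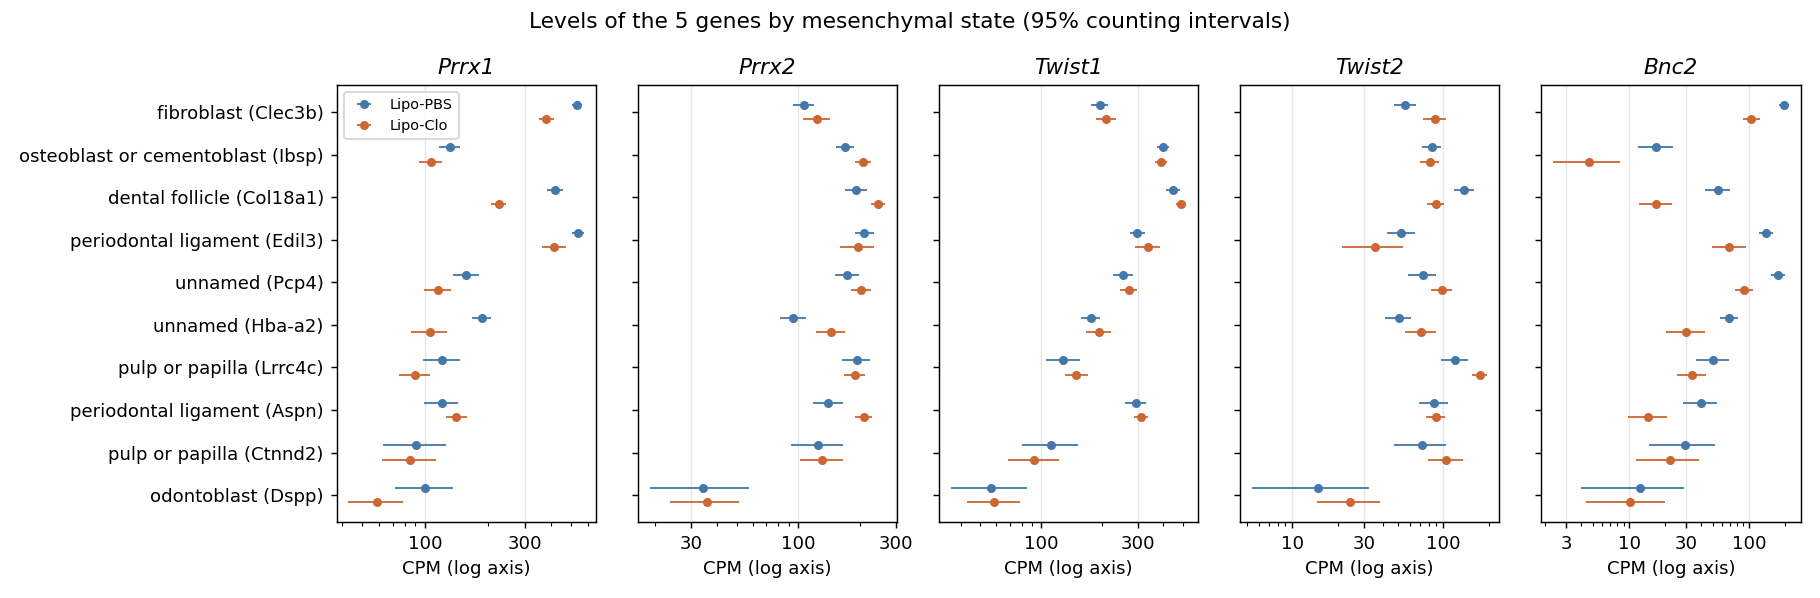
Level of each gene (CPM, log axis) in 10 mesenchymal states, named with their leading gene, for Lipo-PBS (blue) and Lipo-Clo (orange), 1 library each, with 95% Poisson intervals. Prrx1 and Bnc2 share high levels in the fibroblast and Edil3-led ligament states, and Twist1 peaks in follicle.

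Over the 10 states the levels of Prrx2 went with those of Twist1 (Pearson r = 0.83 of log2 CPM plus 10) and Twist2 (r = 0.78), and those of Prrx1 with Bnc2 (r = 0.70). The paralogs were less alike, at r = 0.37 for Prrx1 and Prrx2 and 0.44 for Twist1 and Twist2. These values describe 10 points that share libraries and depth. Odontoblasts were the lowest point for Prrx2, Twist1 and Twist2, so the values of Prrx2 with Twist1 and Twist2 lean on that state. The genes most like Prrx1 were Mxra7, Ecm1, Loxl1, which acts in elastic fibres, Phlda3 and Col6a3, a collagen VI chain (r = 0.96 each). Those most like Twist1 were Hk2, Nfatc4, Fzd1, a Wnt receptor, Svep1 and Tfap2b, a neural crest transcription factor (0.93 to 0.97). Bnc2 was most like Sfrp2, a secreted Wnt modulator, Pmp22, Gas6, Mfap4 and H19 (0.89 to 0.92). For Prrx2 they were Meaf6, Vcl, Snai1, an EMT factor, Cpxm1 and Epha4 (0.92 to 0.95), and for Twist2 Hacd4, Osr2, Adh5, Zfp580 and Sipa1l1 (0.88 to 0.89).

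Between the libraries, Bnc2 and Prrx1 were lower in Lipo-Clo mesenchyme, and Prrx2, Twist1 and Twist2 were slightly higher. Bnc2 was at 36.1 CPM in Lipo-Clo (517 UMIs) and 94.9 in Lipo-PBS (1280 UMIs), 2.63-fold lower (log2 ratio −1.40, −1.55 to −1.25). Prrx1 was at 168 CPM (2405 UMIs) and 292 CPM (3933 UMIs), 1.74-fold lower (−0.80, −0.87 to −0.72). Both were thus past 1.5-fold, the limit used here in place of a test.

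Its paralog Prrx2 went the other way, at 186 CPM in Lipo-Clo (2670 UMIs) and 149 in Lipo-PBS (2004 UMIs), a log2 ratio of 0.33 (0.24 to 0.41). Twist1 was at 294 and 263 CPM (4207 and 3550 UMIs; 0.16, 0.09 to 0.22). Twist2 was at 91.6 and 74.0 CPM (1313 and 997 UMIs; 0.31, 0.19 to 0.43). These 3 were within the limit, and their intervals left out 0.

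Of the 5 genes, 2 were past 1.5-fold lower and 0 higher, against 5.12% and 0.87% (5.99% in either direction) of the 4710 genes in use. Genes in use had a UMI in at least 10% of mesenchymal cells of either library, and their median log2 ratio was −0.01. The 5 genes were chosen with earlier results of these data known, so this count is a description and no support. A Bnc2 UMI was found in 8.74% of Lipo-Clo and 19.9% of Lipo-PBS mesenchymal cells, so that Bnc2 was in use only through the library in which it is high, and its place in this count is no support. After thinning to 1000 UMIs, which 3891 Lipo-Clo and 3810 Lipo-PBS cells allowed, the shares were 3.73% and 9.74%. For Prrx1 the shares were 36.8% and 48.7%, and 16.3% and 24.5% after thinning. For Twist1 they were 49.2% and 46.1%.

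Long genes as a whole were lower in Lipo-Clo, and this moved with the result. The median log2 ratio of the genes in use was 0.27 for genes under 10 kb from start to end, −0.14 for those of 30 to 100 kb and −0.35 for the 224 genes over 300 kb, of which 21.4% were past 1.5-fold lower. Bnc2 spans 400.2 kb, Prrx1 68.6, Twist2 46.6, Prrx2 46.3 and Twist1 2.16 (GENCODE M21). Malat1, a nuclear RNA, was at 12188 and 18332 CPM in mesenchyme. Less the median of its own length class, the log2 ratio of Bnc2 was −1.05, of Prrx1 −0.65, of Prrx2 0.47 and of Twist2 0.45, so that these 4 kept their directions. That of Twist1 turned to −0.11. The part of nuclear RNA in the ratios was not tested. In the same annotation Twist2 overlaps Gm29101 on its own strand, so that reads in the shared part are uncertain.

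**Figure D4:**
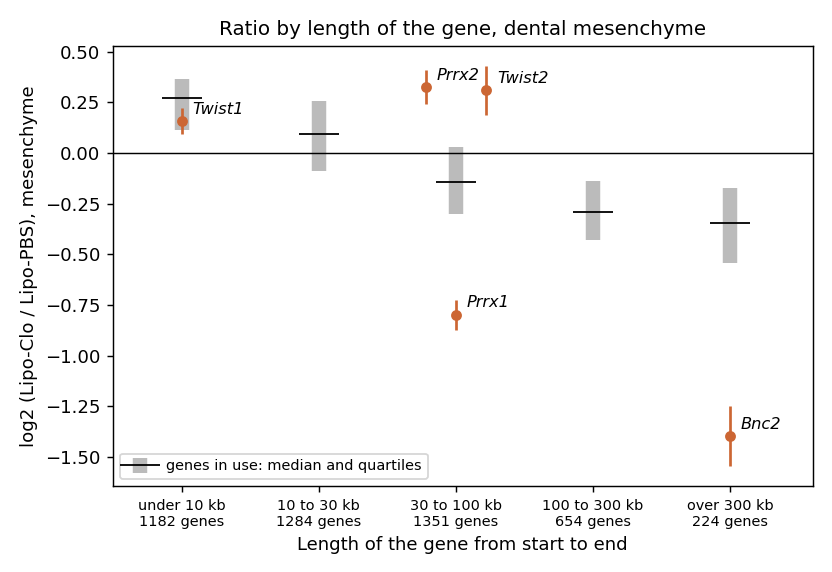
Log2 ratio of Lipo-Clo to Lipo-PBS in mesenchyme against the length of the gene in 5 bins, with grey bars for the quartiles and black lines for the median of the genes in use, and orange points for the 5 genes with 95% intervals. Bnc2 and Prrx1 lie below the quartiles of their bins, Prrx2 and Twist2 above, and Twist1 inside.

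The mixture of states differed between the libraries as well. When each library was weighted to 1 common mixture of states, the log2 ratio of Bnc2 was −0.9997 and that of Prrx1 −0.49, which is within 1.5-fold. Prrx2 was then at 0.24, Twist2 at 0.15 and Twist1 at 0.078. In sums over a class, fewer cells of a state and less RNA per cell cannot be told apart.

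Within the states, Bnc2 was lower in Lipo-Clo in 10 of 10, with 7 intervals below 0. In fibroblasts it was at 105 CPM in Lipo-Clo and 197 in Lipo-PBS (log2 ratio −0.91), where genes over 300 kb had a median of −0.61. In the Pcp4-led state it was at 91.8 and 174 (−0.93), against a median of −0.50. In follicle it was at 16.8 and 55.7 (−1.73), against −0.58, and in osteoblasts or cementoblasts at 4.66 and 16.9 (11 and 37 UMIs; −1.86), against −0.25. The ratio was thus closer to that of other long genes in fibroblasts than in follicle and in osteoblasts or cementoblasts. Less these medians Bnc2 was within 1.5-fold in fibroblasts (−0.30), the Pcp4-led state (−0.43) and the Edil3-led state (−0.48). Both pulp or papilla states (−0.24 and −0.18) and odontoblasts (−0.06) were within it as well. Past it were follicle (−1.15), osteoblasts or cementoblasts (−1.61), the Hba-a2-led state (−0.82) and the Aspn-led state (−0.76).

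Prrx1 was lower in 9 of 10 states, with 8 intervals below 0. The largest difference was in follicle, at 225 CPM in Lipo-Clo and 419 in Lipo-PBS (−0.90, −1.07 to −0.72), where genes of 30 to 100 kb had a median of −0.25. In fibroblasts it was at 381 and 534 (−0.49), against a median of −0.22, and in the Edil3-led ligament state at 415 and 539.96 (−0.38), against −0.17. Less these medians the ratios were −0.64 in follicle, −0.27 in fibroblasts and −0.21 in the Edil3-led state. Follicle was not the furthest by this measure, with the Hba-a2-led state at −0.71 and odontoblasts at −0.68. Before it, these were at −0.83 (−1.15 to −0.51) and −0.78 (−1.41 to −0.13), and both intervals overlapped that of follicle. The Aspn-led ligament state was the exception, at 141 and 120.2 CPM (0.23, −0.08 to 0.56).

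Prrx2 was higher in 8 of 10 states, with 4 intervals above 0. In the follicle state, where summed Prrx1 was lower, summed Prrx2 was at 246 and 192 CPM (0.36, 0.14 to 0.57). Whether both differences lie in the same cells was not tested. Twist1 had 0 of 10 intervals clear of 0, and its state ratios lay between −0.28 and 0.22. This depended on how cells were grouped. In the first clustering of all cells, a mesenchymal cluster of 709 Lipo-Clo and 666 Lipo-PBS cells had Twist1 at 0.34 (0.22 to 0.47). The Twist1 intervals of the other mesenchymal clusters there held 0.

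Twist2 differed in direction by state. It was higher in the Lrrc4c-led pulp or papilla state, at 175 CPM in Lipo-Clo and 119.6 in Lipo-PBS (0.55, 0.21 to 0.89), and in fibroblasts, at 87.8 and 56.1 (0.65, 0.29 to 1.00). In follicle it was lower, at 89.2 and 138 CPM (−0.63, −0.92 to −0.34). The difference between states was not tested.

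**Figure D5:**
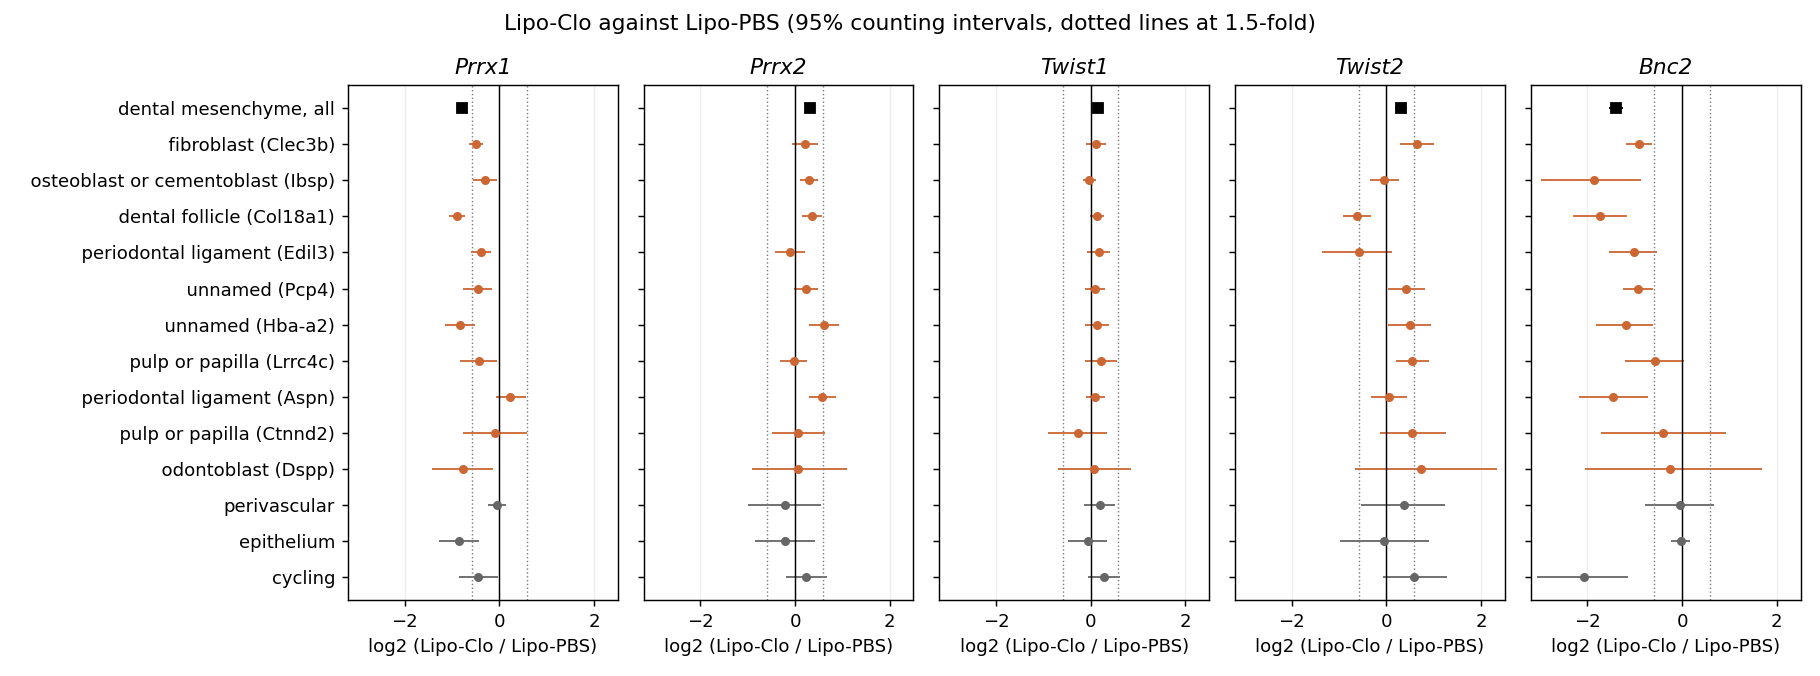
Log2 ratio of Lipo-Clo to Lipo-PBS with 95% counting intervals for all mesenchyme (black squares), its 10 states (orange) and 3 other classes (grey), with dotted lines at 1.5-fold. The points of Bnc2 lie below 0 in all 10 states and close to 0 in epithelium and perivascular cells, and that of Prrx1 is close to 0 in perivascular cells.

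In the classes outside mesenchyme where Prrx1 and Bnc2 were highest, the libraries were close for these genes. Epithelial Bnc2 was at 167 CPM in Lipo-Clo (429 UMIs) and 169.9 in Lipo-PBS (385 UMIs), a log2 ratio of −0.03 (−0.23 to 0.18). The epithelial genes over 300 kb had a median of −0.15, and epithelial Malat1 was at 20953 and 21793 CPM. The 2 epithelial clusters were at 184 and 159 CPM (0.20, −0.09 to 0.50) for that led by Amelx and at 137 and 177 CPM (−0.37, −0.69 to −0.05) for that led by Lgals7. Their shares of the class differed, with 602 and 334 cells in the first and 224 and 373 in the second.

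Perivascular Prrx1 was at 489 CPM in Lipo-Clo (384 UMIs) and 507 in Lipo-PBS (660 UMIs), a log2 ratio of −0.05 (−0.24 to 0.13), with a median of −0.06 for genes of 30 to 100 kb. Perivascular Bnc2 was at 34.4 and 35.3 CPM, with 27 and 46 UMIs (−0.04, −0.78 to 0.68). The perivascular genes over 300 kb had a median of −0.24, and perivascular Malat1 was at 22086 and 30225 CPM. The intervals of perivascular Prrx1 and epithelial Bnc2 did not overlap those of the same genes in mesenchyme as a whole. With single states most did for Prrx1 and some for Bnc2. Perivascular Prrx1 was apart only from fibroblasts (−0.63 to −0.34), follicle and the Hba-a2-led state (−1.15 to −0.51). It overlapped all other states, such as the Edil3-led state (−0.59 to −0.17) and osteoblasts or cementoblasts (−0.55 to −0.05). Epithelial Bnc2 overlapped both pulp or papilla states and odontoblasts, though not fibroblasts or follicle. The difference between classes was not tested. In Lipo-Clo, epithelium held 41.5% of all Bnc2 UMIs and mesenchyme 50.05%, against 18.6% and 62.0% in Lipo-PBS.

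Over the 9 classes other than dental mesenchyme, Lipo-Clo was below Lipo-PBS for Prrx1 in 9 and for Bnc2 in 8. Each gene had 5 intervals below 0. The 9 include the cycling cluster, whose intervals are among the 5 for both genes (log2 ratios −0.44 and −2.08). That cluster carried the 5 collagen and matrix genes at 61662 and 66762 CPM, near the 67914 and 67088 of mesenchyme, so it is not clearly outside mesenchyme. Long genes as a whole were also lower in the 5 classes of Bnc2. Genes over 300 kb had medians of −0.22 in endothelium, −0.60 in cycling cells, −0.83 in macrophages, −0.96 in neutrophils and −1.19 in erythroid cells. Bnc2 was there at −1.49, −2.08, −3.46, −2.12 and −2.72. In the 5 classes of Prrx1, genes of 30 to 100 kb had medians from −0.07 in epithelium to −0.44 in neutrophils. Over both libraries Prrx1 in neutrophils and endothelium was near the ratio of mesenchyme as a whole. Endothelial Bnc2 was above it, though within the range of the mesenchymal states. In neutrophils Prrx1 was at 28.1 and 81.0 CPM, and the 5 collagen and matrix genes were at 9443 and 16817 CPM. Per 1000 of their UMIs, neutrophil Prrx1 was at 2.98 and 4.82, beside 2.47 and 4.35 in mesenchyme.

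Partners and relatives of the 5 genes were read from lists, whose counts stand against the 5.12% lower and 0.87% higher of all genes in use. Of 9 Twist partners and inhibitors, 6 were in use, and 1 was past 1.5-fold, higher: Id1, at 97.5 and 61.2 CPM (0.67), an inhibitor that binds E proteins. Id3, its relative, was at 0.39, and the E protein genes Tcf12 and Tcf4 were lowest, at −0.38 and −0.37. Tcf4 and Tcf12 are long genes, as are Ebf1 and Zeb1 of the other lists. The list's median was 0.23.

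Of 22 homeobox and paired box genes of jaw mesenchyme, 9 were in use, with a median of 0.16, and 1 was past the limit: Msx2, a homeobox gene of tooth and skull, at 55.4 and 33.5 CPM (0.73). Msx2 was in use only through Lipo-Clo, where it is high (11.9% of cells against 7.69%), so that this count is no support. Six2, at 0.43, was likewise in use only through Lipo-Clo (10.8% of cells against 8.26%), and the list's median includes both genes. Shox2 was at −0.38. Of 4 other EMT transcription factors 3 were in use. Zeb1 was past the limit, lower, at 58.6 and 105 CPM (−0.84), Zeb2 was at −0.21 and Snai1 at 0.50.

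Of 19 other fibroblast and mesenchyme transcription factors, 7 were in use, with a median of −0.09, and Ebf1 was past the limit at 184 and 353 CPM (−0.94). Mkx, a tendon and ligament factor, was next at −0.51. It was in use only through Lipo-PBS, where it is high (12.4% of cells against 9.47%), and it enters this median. Foxf1 and Foxf2 were at 0.41 and 0.39. Bnc1, the paralog of Bnc2, had 3 and 1 UMIs. Of the 4 osteogenic factors all were in use and 0 were past the limit, with Sp7 at 0.53, Atf4 at 0.15 and Runx2 at −0.13. Of 8 genes linked to Twist1 or Prrx1, 8 were in use and 0 were past it. Fn1 and Postn, matrix genes, were lowest at −0.56 and −0.52, and Tnc and Fgfr2 highest at 0.26 and 0.13.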

How the data were processed

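Raw UMI counts for each gene in each cell were deposited by the authors (matrix headers name Cell Ranger 8.0.0, while the submitters' processing notes name Cell Ranger 3.1.0, Seurat 3.1.1 and GRCm39, and the 2 could not be reconciled). Lipo-Clo held 31053404 UMIs over 9362 cells and Lipo-PBS 30537834 over 9653. Cells with at least 200 genes and no more than 20% mitochondrial UMIs were kept. Scrublet's automatic threshold (scanpy 1.11.5) called 0 and 1 doublets, so the 632 and 633 highest scores were left out. Leiden clustering (leidenalg 0.10.2) used 2000 variable genes without the 5 members, 30 components, 20 neighbours and resolution 1, on both libraries together. Mesenchyme was clustered again at 0.6. Clusters took the name of a class with at least 3 markers 2-fold above the median cluster, unless another class led its top 10 genes or 2 or more other classes were marked (the last not applied to the states within mesenchyme). These naming rules were settled after the data were seen. Ratios carry exact intervals for 2 Poisson counts, shares exact Clopper-Pearson intervals. The scripts were tested on simulated Poisson counts, the model that the intervals assume, without variation between cells or mice. Members and lists were chosen with earlier results of these data known. Named beside the members are, per list, the 2 lowest and 2 highest ratios among genes in use, the 3 leading genes of each state, and the 5 genes most like each member. Bnc1 and Malat1 were named after their values were seen. Some genes that this rule names are not reported here. Promoters are from RefSeq and were matched for 5 of 5 members. Gene lengths (GENCODE M21, GRCm38) were matched by identifier for 99.7% of the genes in use. The alternatives are named with their effects in the closing section, with edgeR 4.0.16 and DESeq2 1.42.0 used for scaling factors.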

Additional observations from a re-analysis of the deposited data

Results flagged for a closer look

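The ratios of 3 pairs of a gene and a class or state had intervals on the opposite side of 0 from the same gene in mesenchyme as a whole, and none of these differences was tested, since each condition has 1 library. Twist1 in macrophages had a log2 ratio of −1.58, at 29.0 CPM in Lipo-Clo and 86.5 in Lipo-PBS (20 and 84 UMIs), where mesenchyme had 0.16. The clusters of this class were unlike. In that of 116 Lipo-Clo and 167 Lipo-PBS cells Twist1 was at 0.22 (12 and 17 UMIs, −0.98 to 1.37). In that of 118 and 151 cells it was at −2.73 (8 and 67 UMIs, −4.00 to −1.67). Per 1000 UMIs of the 5 collagen and matrix genes, macrophage Twist1 was at 2.99 and 4.61, and the intervals overlapped. Twist1 in neutrophils had a log2 ratio of −0.87 (92 and 43 UMIs), and per 1000 UMIs of those genes it was at 4.22 and 4.31. Twist2 in dental follicle had a log2 ratio of −0.63 (223 and 176 UMIs), where mesenchyme had 0.31.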

How the results depend on the processing

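No paired analysis was possible because there is 1 library per condition, and for the same reason no library could be left out. Each log2 ratio was recomputed under 19 alternatives. Bnc2 was past 1.5-fold lower in 19 and Prrx1 in 17, while Prrx2, Twist1 and Twist2 were past it in 0. No alternative took the mixture of states and gene length together. With stricter cell filters (500 genes, 10% mitochondrial UMIs) Bnc2 was at −1.67, with the mean over scaled cells −1.11, and without the Pcp4-led cluster −1.56. At Leiden resolution 2 Bnc2 was at −1.67, Twist1 at 0.24 and Twist2 at 0.10. Thinned cells gave Prrx2 0.23 and Twist2 0.45. With the same mixture of states Prrx1 was at −0.49, Prrx2 0.24, Twist1 0.078, Twist2 0.15 and Bnc2 −0.9997, with 185 genes past 1.5-fold in place of 282. With states formed without those genes Prrx1 was at −0.48 and Bnc2 −0.99, with 166 genes. With the clusters of several classes, of 11 Lipo-Clo and 819 Lipo-PBS cells, counted as mesenchyme, Prrx1 was at −0.66, Prrx2 0.46, Twist1 0.28 and Twist2 0.44. Less the median of its length class Prrx1 was at −0.65, Prrx2 0.47, Twist2 0.45 and Bnc2 −1.05, and Twist1 reversed to −0.11. Each library clustered on its own gave 458 genes, all genes with at least 20 UMIs 2320, a limit of 0.32 on the log2 scale 1578 and of 2-fold 51. The cause of these shifts was not tested, apart from the limits and the number of genes, which set their counts by construction. The 282 genes were 241 lower and 41 higher. They were 874 and 704 at the limit of 0.32, 1458 and 862 with all genes of at least 20 UMIs, 227 and 86 with thinned cells, 164 and 56 with scaled cells, and 151 and 55 less the length medians. Mesenchyme's share of Bnc2 UMIs ran from 40.9% to 59.7% over the clustering alternatives, of Prrx1 from 61.2% to 74.9%, of Twist1 from 66.3% to 84.8%, of Prrx2 from 61.4% to 87.7% and of Twist2 from 54.9% to 87.0%, each lowest at Leiden resolution 2. The alternatives by clusters of several classes, the cycling, Pcp4-led and globin-led cells, the second states and gene length were chosen after seeing the data. Low counts limit Bnc2 in odontoblasts (8 and 5 UMIs) and Prrx2 and Twist2 outside mesenchyme and the cycling cluster. Of the 9 classes other than dental mesenchyme, 0 had an interval clear of 0 for either gene.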

Other observations

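The 4 unnamed clusters carried the 5 genes mainly in Lipo-PBS, whose cells there were 977 against 324 in Lipo-Clo. Prrx1 was at 152 CPM in Lipo-PBS (595 UMIs) and 18.3 in Lipo-Clo (34 UMIs), Twist1 at 142 and 26.9, Prrx2 at 75.7 and 12.9, Bnc2 at 55.5 and 3.23 and Twist2 at 37.8 and 8.07. These clusters held 10.5% of all Lipo-PBS Prrx1 UMIs and 1.07% of those of Lipo-Clo. Cells with markers of several classes made up 819 of the Lipo-PBS and 11 of the Lipo-Clo cells in them. These sums set different clusters against each other. The cluster with most of the Lipo-Clo cells held 313 and 158 cells, and that with most of the Lipo-PBS cells 10 and 752. In the latter Prrx1 was at 234 CPM in Lipo-Clo and 166 in Lipo-PBS (11 and 512 UMIs). Twist1 was at 447 and 160 (21 and 491 UMIs), Prrx2 at 107 and 82.2, and Twist2 and Bnc2 had 0 Lipo-Clo UMIs.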
